A study of Mus musculus with 8 samples.

Results

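The 39 protein-coding Hox genes of the mouse were followed in αTC1-6 cells, a clonal glucagon-secreting line of pancreatic alpha cells (label: aTC1-6). They were chosen by name alone, as every protein-coding gene called Hoxa, Hoxb, Hoxc or Hoxd plus a number, and they make up 39 of the 75078 genes in the deposited table. The Hoxa cluster on chromosome 6 holds 11 of them, Hoxb on chromosome 11 holds 10, Hoxc on chromosome 15 holds 9 and Hoxd on chromosome 2 holds 9. Of the 8 poly(A) RNA libraries, 4 came from cells transfected with a plasmid that overexpresses Yy1 (libraries 45, 46, 47 and 48) and 4 from cells transfected with an empty, stuffer plasmid (libraries 31, 32, 33 and 34). Both groups were the same line, transfected 24 h after seeding in 11 mM DMEM, and the labels give no genotype or further agent for either. Neither the time of harvest nor separate cultures are stated, so a p-value here speaks of the spread among these 8 samples, and that spread may be technical.

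Hox genes encode homeodomain transcription factors that give cells their position along the head-to-tail axis. In each cluster they lie in the order in which they are used, from the low paralog numbers at the head end to the high numbers at the tail end. Where a cell type does not use them, Polycomb complexes keep the clusters silent by marking their chromatin, and Trithorax proteins oppose this. The fly protein Pleiohomeotic, a DNA-binding Polycomb group member, is the relative of mammalian YY1. RNA was measured here and chromatin was not, so that the Hox genes are Polycomb targets in these cells is background and no result.

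Libraries held 20679565 to 33347196 counts, with 127721918 in the Yy1 group and 105669588 in the empty group, a ratio of 1.21. Yy1 itself stood at 4814 to 5897 CPM (counts per 1e6 of the TMM-scaled library size) with the Yy1 plasmid and at 168 to 181 CPM with the empty plasmid. The alpha cell label held: 13 of 13 alpha cell markers were measured above the filter, and Gcg, the glucagon gene, had 21290 ± 372 CPM with the Yy1 plasmid and 21230 ± 547 CPM with the empty plasmid (SD, n = 4 each). The beta cell genes Ins1 and Ins2 and the pancreatic polypeptide gene Ppy had 0 counts in all 8 libraries. These are 3 of 8 listed beta and delta cell markers, and another 3 passed the filter. The list summed to 49.3 to 59.0 CPM with the Yy1 plasmid and 52.9 to 57.4 CPM with the empty plasmid, most of it from Nkx6-1.

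The Hox clusters were all but silent in both groups. All 39 genes together gave 46, 39, 43 and 33 counts in Yy1 plasmid libraries 45 to 48, and 34, 36, 22 and 29 counts in empty plasmid libraries 31 to 34. Scaled for depth this was 1.41, 1.31, 1.29 and 1.03 CPM with the Yy1 plasmid and 1.1, 1.36, 1.08 and 1.04 CPM with the empty plasmid. The libraries of the groups overlapped, and the group means were 1.26 ± 0.161 CPM with the Yy1 plasmid and 1.14 ± 0.144 CPM with the empty plasmid (SD, n = 4 each). The sums of 161 counts with the Yy1 plasmid (exact Poisson 95% interval 137 to 188) and 121 with the empty plasmid (100.4 to 145) give a ratio per depth of 1.1, with an exact 95% interval of 0.867 to 1.41. These intervals cover counting error only. In all, 282 of 233391506 counts fell on Hox genes.

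**Figure D1:**
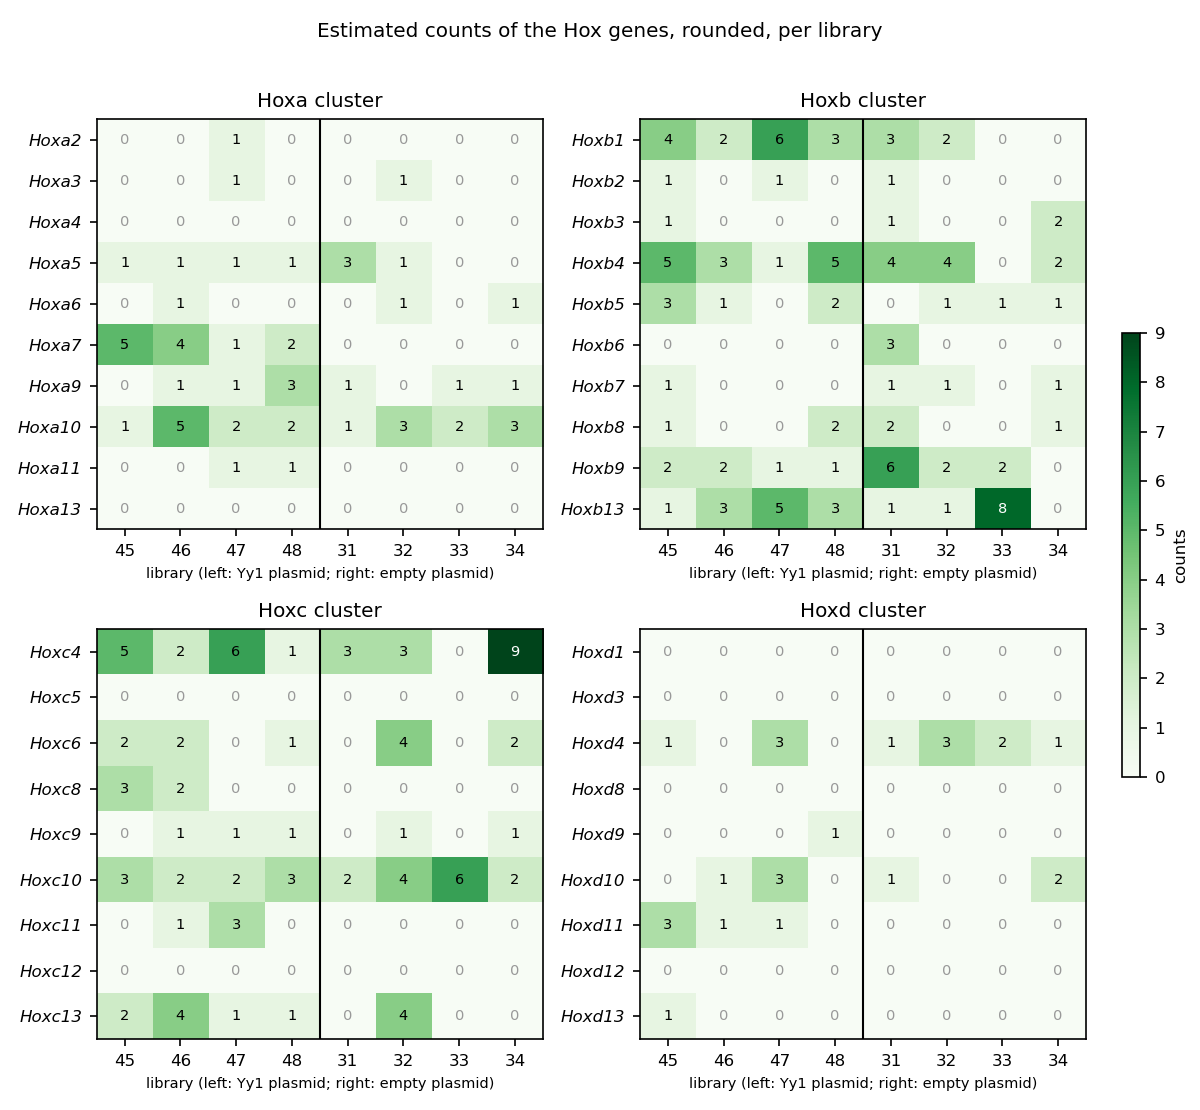
Estimated counts, rounded, of the Hox genes drawn (rows, by cluster and paralog number) in each library (columns), with the Yy1 plasmid libraries left of the line and the empty plasmid libraries right of it. The highest single value is 9, for Hoxc4 in empty plasmid 34, and most values are 0.

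No Hox gene reached the level needed for a test. The filter for the edgeR quasi-likelihood test (a count of about 10 in 4 libraries) kept 15916 genes and 0 of the 39 Hox genes. Among those 15916, 82 passed an adjusted p of 0.05, which is 0.515% (0.496% higher and 0.0188% lower with the Yy1 plasmid), and the test says nothing about the direction of any Hox gene. The highest group mean of any Hox gene was 0.145 CPM, for Hoxc10 with the empty plasmid, while the lowest mean of any protein-coding gene in the test was 0.216 CPM and their median was 32.1 CPM. Of all 21712 protein-coding genes in the table, 8061 (37.1%) had as few counts as the Hox genes, at most 29 over the 8 libraries, and 3334 (15.4%) had 0. Among Hox genes 8 of 39 (20.5%) had 0. With no filter, 31 Hox genes could be tested by edgeR, 0 were called (over all 40437 genes, 0.43% were), and 1 had an unadjusted p under 0.05, where 5.69% of all genes did. With genes of at least 10 counts in all, 11 Hox genes were tested, 0 were called (0.407% of all 25773 genes were) and 1 had an unadjusted p under 0.05. DESeq2 and limma-voom, run on the filtered genes, tested 0 Hox genes.

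The 8 genes with 0 counts everywhere were Hoxa4, Hoxa13, Hoxc5, Hoxc12, Hoxd1, Hoxd3, Hoxd8 and Hoxd12. They come from 3 of the clusters and include head-end genes (Hoxd1), trunk genes (Hoxa4, Hoxc5) and limb and genital genes of the tail end (Hoxa13, Hoxd12). A count of 0 allows up to 3 counts, which is 0.0235 CPM over the 4 Yy1 plasmid libraries and 0.0284 CPM over the 4 empty plasmid libraries. A further 13 genes were seen in 1 to 3 libraries, and 18 in at least 4. Hoxa10 and Hoxc10, both tail-end genes of trunk and limb, were the 2 genes seen in all 8.

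What the silent and near-silent genes look like in sequence is shown by the promoters of 3 members with different counts. RefSeq windows (GRCm38.p6, an older build than the GRCm39 of the counts) run from 250 bases before to 50 bases after the start, 5′ to 3′ on the gene's strand, and capitals mark CpG dinucleotides, the substrate of DNA methylation and the landing site of some Polycomb complexes. Hoxa13 had 0 counts, Hoxc4 had the most counts of any Hox gene, and Hoxa7 was the only gene whose libraries did not overlap between the groups.
Hoxa13: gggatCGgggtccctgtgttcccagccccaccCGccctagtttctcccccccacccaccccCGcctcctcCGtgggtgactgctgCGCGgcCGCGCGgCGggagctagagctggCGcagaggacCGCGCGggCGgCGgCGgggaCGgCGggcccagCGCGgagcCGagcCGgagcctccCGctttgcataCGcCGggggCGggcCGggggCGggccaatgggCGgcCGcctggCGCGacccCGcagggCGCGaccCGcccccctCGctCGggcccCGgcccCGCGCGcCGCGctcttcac
Hoxc4: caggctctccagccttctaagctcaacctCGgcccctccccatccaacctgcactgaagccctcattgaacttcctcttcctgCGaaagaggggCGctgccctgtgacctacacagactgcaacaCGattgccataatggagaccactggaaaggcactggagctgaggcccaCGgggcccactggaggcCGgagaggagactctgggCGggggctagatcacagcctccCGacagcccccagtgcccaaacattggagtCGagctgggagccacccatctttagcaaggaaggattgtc
Hoxa7: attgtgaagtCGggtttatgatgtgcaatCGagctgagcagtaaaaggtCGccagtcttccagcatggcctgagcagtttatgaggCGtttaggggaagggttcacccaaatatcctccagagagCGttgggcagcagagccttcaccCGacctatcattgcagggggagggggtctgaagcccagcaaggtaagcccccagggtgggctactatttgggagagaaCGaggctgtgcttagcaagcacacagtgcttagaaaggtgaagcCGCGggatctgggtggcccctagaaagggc
The windows lie at chr6:52260831-52261130 on the minus strand (Hoxa13), chr15:103034145-103034444 on the plus strand (Hoxc4) and chr6:52218524-52218823 on the minus strand (Hoxa7). The Hoxa13 window holds 45 CpGs and no counts were seen from the gene, while those of Hoxc4 and Hoxa7 hold 9 each. The windows of the other genes with 0 counts hold 6 (Hoxd8), 13 (Hoxd12), 20 (Hoxd3) and 29 (Hoxd1), and 1 of the windows of Hoxa10, which had 19 counts, holds 21. The median of all 32841 windows in the table was 7. The core of the YY1 motif, spelled CCATNTT and searched on both strands, occurs in 1 place in the Hoxc4 window and in none of the other two, and in 5280 of all windows (16.1%). Windows were found for 22 of the 39 Hox genes (56.4%), too few for a statement about the Hox genes as a set, so that check is void. Of their 24 windows, 2 hold the motif, those of Hoxc4 and Hoxd10.

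For all 39 genes the first 300 bases of the longest annotated transcript could be used instead, a measure added after the data were seen. Of the Hox genes 22 (56.4%) had a CpG-rich start, with an observed over expected CpG ratio of at least 0.6 and at least 50% G and C. The share was 64.0% of 12462 protein-coding genes in the edgeR fit and 15.4% of 7974 other protein-coding genes with as few counts as the Hox genes. The promoter window of Hoxa7 has a ratio of 0.405, against a median of 0.384 over all windows. Its transcript start is CpG-rich by this measure (ratio 0.872). The median ratio was 0.744 for Hox genes, 0.735 for the genes in the fit and 0.278 for the other rare ones. Hox starts were thus nearer to those of the genes in the fit than to those of the other rare genes. Of all 9560 CpG-rich starts 1250 (13.1%) belonged to genes with so few counts. No test was made, since genes of a cluster share their sequence history.

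**Figure D2:**
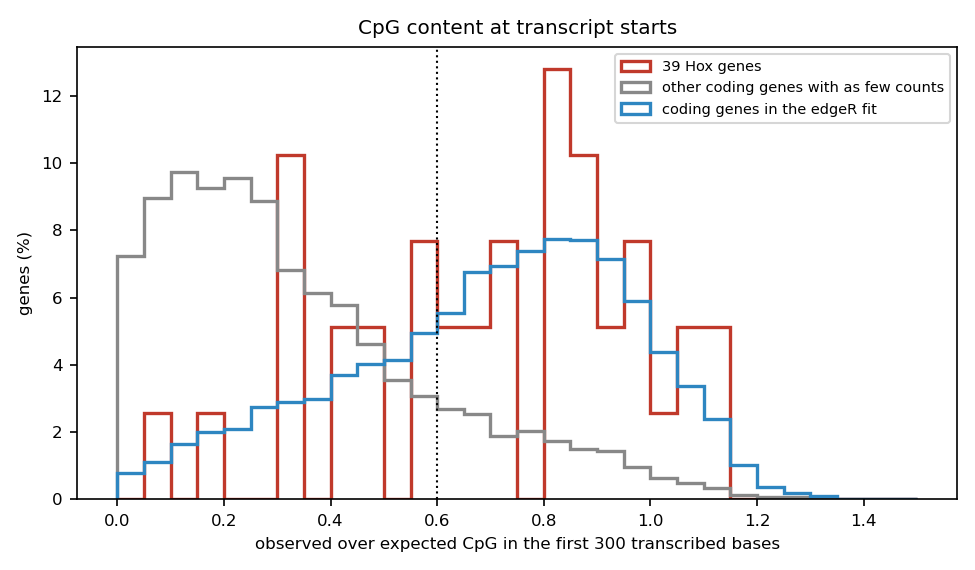
Share of genes (y axis, %) by the observed over expected CpG ratio of the first 300 transcribed bases (x axis) for the 39 Hox genes, other protein-coding genes with as few counts, and protein-coding genes in the edgeR fit; ratios above the axis are drawn in the last bin and the dotted line marks 0.6. The medians are 0.744, 0.278 and 0.735 in that order.

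By cluster, Hoxb and Hoxc carried most of the few counts and Hoxd the fewest. The 10 Hoxb genes, all of them seen at least once, had 0.583, 0.370, 0.421 and 0.502 CPM in Yy1 plasmid libraries 45 to 48, against 0.714, 0.414, 0.539 and 0.251 CPM in empty plasmid libraries 31 to 34. The 9 Hoxc genes, of which 7 were seen, had a mean of 0.386 ± 0.116 CPM with the Yy1 plasmid and 0.390 ± 0.199 CPM with the empty plasmid (SD, n = 4 each). The 9 Hoxd genes, of which 5 were seen, gave 15 counts with the Yy1 plasmid (interval 8.40 to 24.7) and 10 with the empty plasmid (4.80 to 18.4). In each of these clusters the libraries of the 2 groups overlapped and the means lay within 1 SD of each other.

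Hoxa was the cluster with the largest difference, and it too overlapped. Its 11 genes, of which 9 were seen, summed to 0.215, 0.404, 0.271 and 0.282 CPM in Yy1 plasmid libraries 45 to 48, against 0.162, 0.226, 0.147 and 0.179 CPM in empty plasmid libraries 31 to 34. Yy1 plasmid 45 lies below empty plasmid 32, and the other 3 Yy1 plasmid libraries lie above all 4 empty ones. The sums of 37 counts with the Yy1 plasmid and 19 with the empty plasmid give a ratio per depth of 1.62, with an exact 95% interval of 0.906 to 2.97. Hoxa7 alone gave 12 of the 37.

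**Figure D3:**
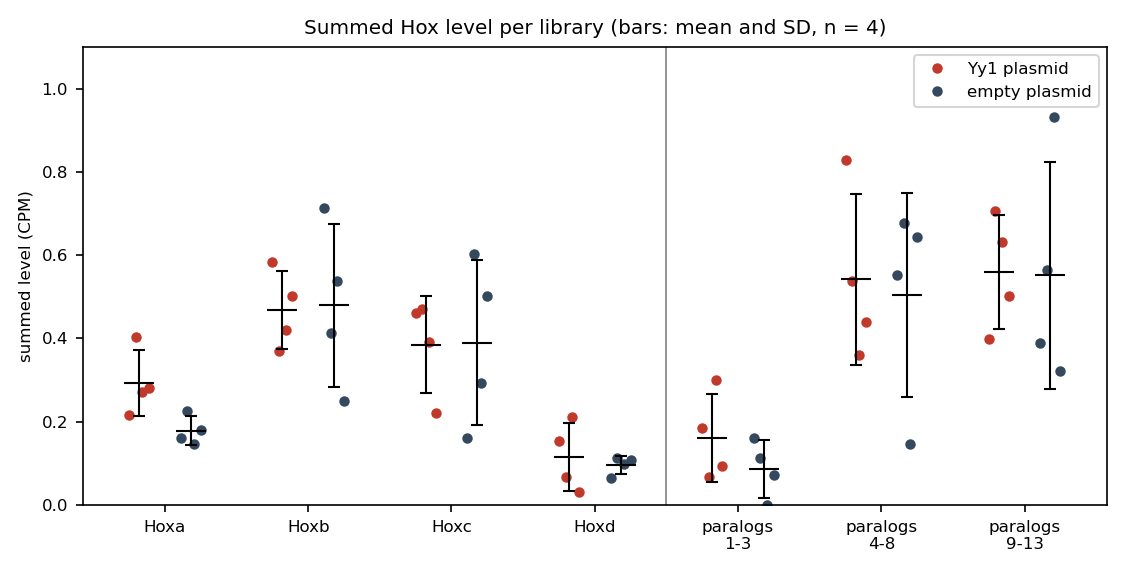
Summed level (y axis, CPM) of the Hox genes of each cluster and of each range of paralog numbers, 1 point per library, with the mean and SD of 4 libraries; Yy1 plasmid left of empty plasmid in each pair. The ranges overlap in every pair, and for Hoxa the means are 0.293 CPM with the Yy1 plasmid and 0.179 CPM with the empty plasmid.

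By position, the 8 head-end genes (paralogs 1 to 3) were the quietest per gene. They averaged 0.162 ± 0.105 CPM in sum with the Yy1 plasmid and 0.0867 ± 0.0687 CPM with the empty plasmid (SD, n = 4 each), or 0.0155 CPM per gene over all libraries. The 15 trunk genes (paralogs 4 to 8) averaged 0.542 ± 0.204 CPM with the Yy1 plasmid and 0.505 ± 0.245 CPM with the empty plasmid, and the 16 tail-end genes (paralogs 9 to 13) averaged 0.560 ± 0.137 and 0.552 ± 0.273 CPM in the same order. Per gene these come to 0.0349 and 0.0347 CPM, and the difference between trunk and tail-end genes was not tested. The paralog groups with the most counts were group 4, with 32 counts in either group of libraries, and group 10, with 24 with the Yy1 plasmid and 26 with the empty plasmid. Group 12, which pairs Hoxc12 with Hoxd12, had 0.

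Among the head-end genes, which pattern the hindbrain, Hoxb1 made up 20 of the 31 counts. It had 4, 2, 6 and 3 counts in Yy1 plasmid libraries 45 to 48, against 3, 2, 0 and 0 in empty plasmid libraries 31 to 34. The groups overlapped, and with no filter the edgeR test gave a log2 fold change of 1.27 (SE 1.01, adjusted p = 0.736). Its deposited values are partly fractional, as are 13 Hox values in 7 genes (farther than 0.01 from a whole number), which marks reads shared with other transcripts. Hoxa2, Hoxa3, Hoxb2 and Hoxb3 had at most 4 counts each over all 8 libraries.

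Among the trunk genes, Hoxc4 and Hoxb4 of paralog group 4, which patterns the neck, had the most counts, while Hoxa4 of the same group had 0. Hoxc4 had 5, 2, 6 and 1 counts in Yy1 plasmid libraries 45 to 48, against 3, 3, 0 and 9 in empty plasmid libraries 31 to 34, with the lowest and the highest value both in empty plasmid libraries. Hoxb4, also known for its use in blood stem cells, had 5, 3, 1 and 5 counts with the Yy1 plasmid, against 4, 4, 0 and 2 with the empty plasmid. Hoxd4 had 1, 0, 3 and 0 counts with the Yy1 plasmid, against 1, 3, 2 and 1 with the empty plasmid. None of these 3 separated the groups.

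Hoxa5, a gene of lung and neck development, had 1 count in each Yy1 plasmid library, against 3, 1, 0 and 0 with the empty plasmid. Hoxb5 had 3, 1, 0 and 2 counts with the Yy1 plasmid, against 0, 1, 1 and 1 with the empty plasmid. Hoxc6, a thoracic gene, had 2, 2, 0 and 1 counts with the Yy1 plasmid, against 0, 4, 0 and 2 with the empty plasmid. All 3 overlapped. Hoxb7 and Hoxb8 were seen in 4 libraries each, with totals of 4 and 6 counts, while Hoxa6, Hoxb6 and Hoxc8 had totals of 3, 3 and 5.

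Hoxa7, a gene of the thoracic spine, was the single Hox gene without overlap between the groups. It had 5, 4, 1 and 2 counts in Yy1 plasmid libraries 45 to 48 and 0 in all 4 empty plasmid libraries. Its mean was 0.0952 ± 0.0584 CPM with the Yy1 plasmid (SD, n = 4). Scaled for depth, its sum of 12 was 3.32-fold the 3 counts that a sum of 0 allows over the empty plasmid group. That figure is no lower limit, since it takes the 12 as exact. The exact Poisson interval of the 12 was 6.2 to 21.0 counts, and that of the empty plasmid sum reached 3.69. With no filter the edgeR test gave an unadjusted p of 0.00570 and an adjusted p of 0.474, and with genes of at least 10 counts in all an adjusted p of 0.459, so it was not called. This all-or-none pattern was found in 9 of the 513 genes with exactly this total count (1.75%), Hoxa7 among the 9. The reverse pattern was found in 0 of the 513, in groups whose depth differed by a ratio of 1.21. Among the 20783 genes with 1 to 29 counts, 1.1% were higher in all Yy1 plasmid libraries than in any empty one and 0.491% were lower in all of them. Among the 31 Hox genes with counts the numbers were 1 and 0. The gene was singled out after its values were seen.

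The tail-end genes pattern the lumbar to caudal trunk, the limbs and the genital tract. Hoxc10 had 3, 2, 2 and 3 counts in Yy1 plasmid libraries 45 to 48, against 2, 4, 6 and 2 in empty plasmid libraries 31 to 34. Hoxa10, which is needed in the uterus, had 1, 5, 2 and 2 counts with the Yy1 plasmid, against 1, 3, 2 and 3 with the empty plasmid. Hoxb9 had 2, 2, 1 and 1 counts with the Yy1 plasmid, against 6, 2, 2 and 0 with the empty plasmid. The ranges of all 3 overlapped.

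Hoxb13, a gene of the prostate and hindgut, had 1, 3, 5 and 3 counts with the Yy1 plasmid, against 1, 1, 8 and 0 with the empty plasmid. Its 8 counts sit in empty plasmid 33, the smallest library. Hoxc13, a hair and nail gene, had 2, 4, 1 and 1 counts with the Yy1 plasmid, against 0, 4, 0 and 0 with the empty plasmid. Hoxa9, a blood progenitor gene, had 0, 1, 1 and 3 counts with the Yy1 plasmid, against 1, 0, 1 and 1 with the empty plasmid. Hoxd10 was seen in 4 libraries with 7 counts in all, and Hoxc9 in 5 libraries with 5.

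Paralog group 11, which shapes the forelimb and kidney, had 11 counts with the Yy1 plasmid and 0 with the empty plasmid, a pattern chosen after the values were seen. Hoxd11 gave 3, 1, 1 and 0 of them in Yy1 plasmid libraries 45 to 48, Hoxc11 gave 0, 1, 3 and 0, and Hoxa11 gave 0, 0, 1 and 1. With no filter the unadjusted edgeR p values were 0.0538 for Hoxd11, 0.0744 for Hoxc11 and 0.171 for Hoxa11. The adjusted p of each was 0.736. Of all genes with 1 to 29 counts, 25.2% were seen with the Yy1 plasmid alone and 15% with the empty plasmid alone. Those shares are over single genes of any such total, down to 1 count, while the pattern here sums 3 genes to 11 counts. They therefore do not tell how common it is, and genes matched on count were not compared.

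More Hox genes were seen with the Yy1 plasmid than with the empty one. At least 1 count was found for 30 genes in the Yy1 plasmid libraries and for 22 in the empty plasmid libraries, 21 of them in both. The 9 genes seen with the Yy1 plasmid alone included Hoxa2, Hoxa7, Hoxa11, Hoxc8, Hoxc11, Hoxd9, Hoxd11 and Hoxd13, and Hoxb6 was seen with the empty plasmid alone, in library 31. Among all 20783 genes with 1 to 29 counts, 25.2% were seen with the Yy1 plasmid alone and 15% with the empty plasmid alone, in libraries that also differ in depth. Brought to the depth of the smallest library, the expected numbers of Hox genes seen were 26.7 with the Yy1 plasmid and 21.2 with the empty plasmid. Per library, 17 to 21 Hox genes were seen with the Yy1 plasmid, against 7 to 16 with the empty plasmid, where empty plasmid 33 had 7. These numbers per library are not scaled for depth, and the same number over all genes was not counted. The Yy1 plasmid libraries held 29679867 to 33347196 counts, against 20679565 to 30570342 with the empty plasmid.

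Per kilobase of median annotated transcript, the highest Hox levels over all libraries lay close together. Hoxa7 led with 0.0590 CPM per kb, then Hoxc4 with 0.0588, Hoxc10 with 0.0586, Hoxb1 with 0.0556 and Hoxa10 with 0.0535. Neighbours in this order did not differ beyond the spread of their libraries, and the order depends on the transcript length used. With the longest transcript Hoxc10 was highest with 0.0586 CPM per kb, and Hoxa7, with 0.0234, was no longer among the 5 highest, nor was Hoxa10. The median over the 39 genes was 0.0132 CPM per kb.

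Most genes flanking the clusters were well expressed in both groups. Of the 5 nearest protein-coding genes on each side of the 4 clusters, 40 in all, 32 passed the filter, with a median level of 59.4 CPM with the Yy1 plasmid and 59.6 CPM with the empty plasmid. Beside the Hoxa cluster lies Skap2, a signalling adaptor, with 12.9 ± 0.522 CPM with the Yy1 plasmid and 11.8 ± 1.58 CPM with the empty plasmid (SD, n = 4 each). Next to Hoxd1 lies Mtx2, a mitochondrial import protein, with 58.2 ± 1.81 and 59.4 ± 3.82 CPM in the same order, and next to Hoxc4 lies Smug1, a DNA repair glycosylase, with 19.9 ± 1.31 and 20.4 ± 1.25 CPM. Beside the tail end of Hoxc, Calcoco1 had 14.5 ± 1.06 CPM with the Yy1 plasmid and 16.1 ± 0.699 CPM with the empty plasmid. None of the 32 was called by edgeR, DESeq2 or limma-voom (smallest edgeR adjusted p = 0.611, for Snx11), 2 had an unadjusted p under 0.05, where 5.42% of all 15916 tested genes did, and their median log2 fold change was -0.0179, against -0.00249 for all tested genes.

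The 8 flanking genes below the filter included the homeobox genes that sit at the tail ends of Hoxa and Hoxd. Evx1, next to Hoxa13, had 27 counts in all and Evx2, next to Hoxd13, had 1. At both ends of Hoxb the nearest gene was quiet as well, with 0 counts for Ttll6 beside Hoxb13 and 33 for Skap1 beside Hoxb1, and the active genes began with Atp5g1 and Snx11. Several active neighbours are themselves copies of one another, among them Cbx3, Cbx1 and Cbx5, which encode the heterochromatin protein HP1. Cbx5, near Hoxc4, stood at 471 ± 11.9 CPM with the Yy1 plasmid and 457 ± 14.2 CPM with the empty plasmid (SD, n = 4 each).

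**Figure D4:**
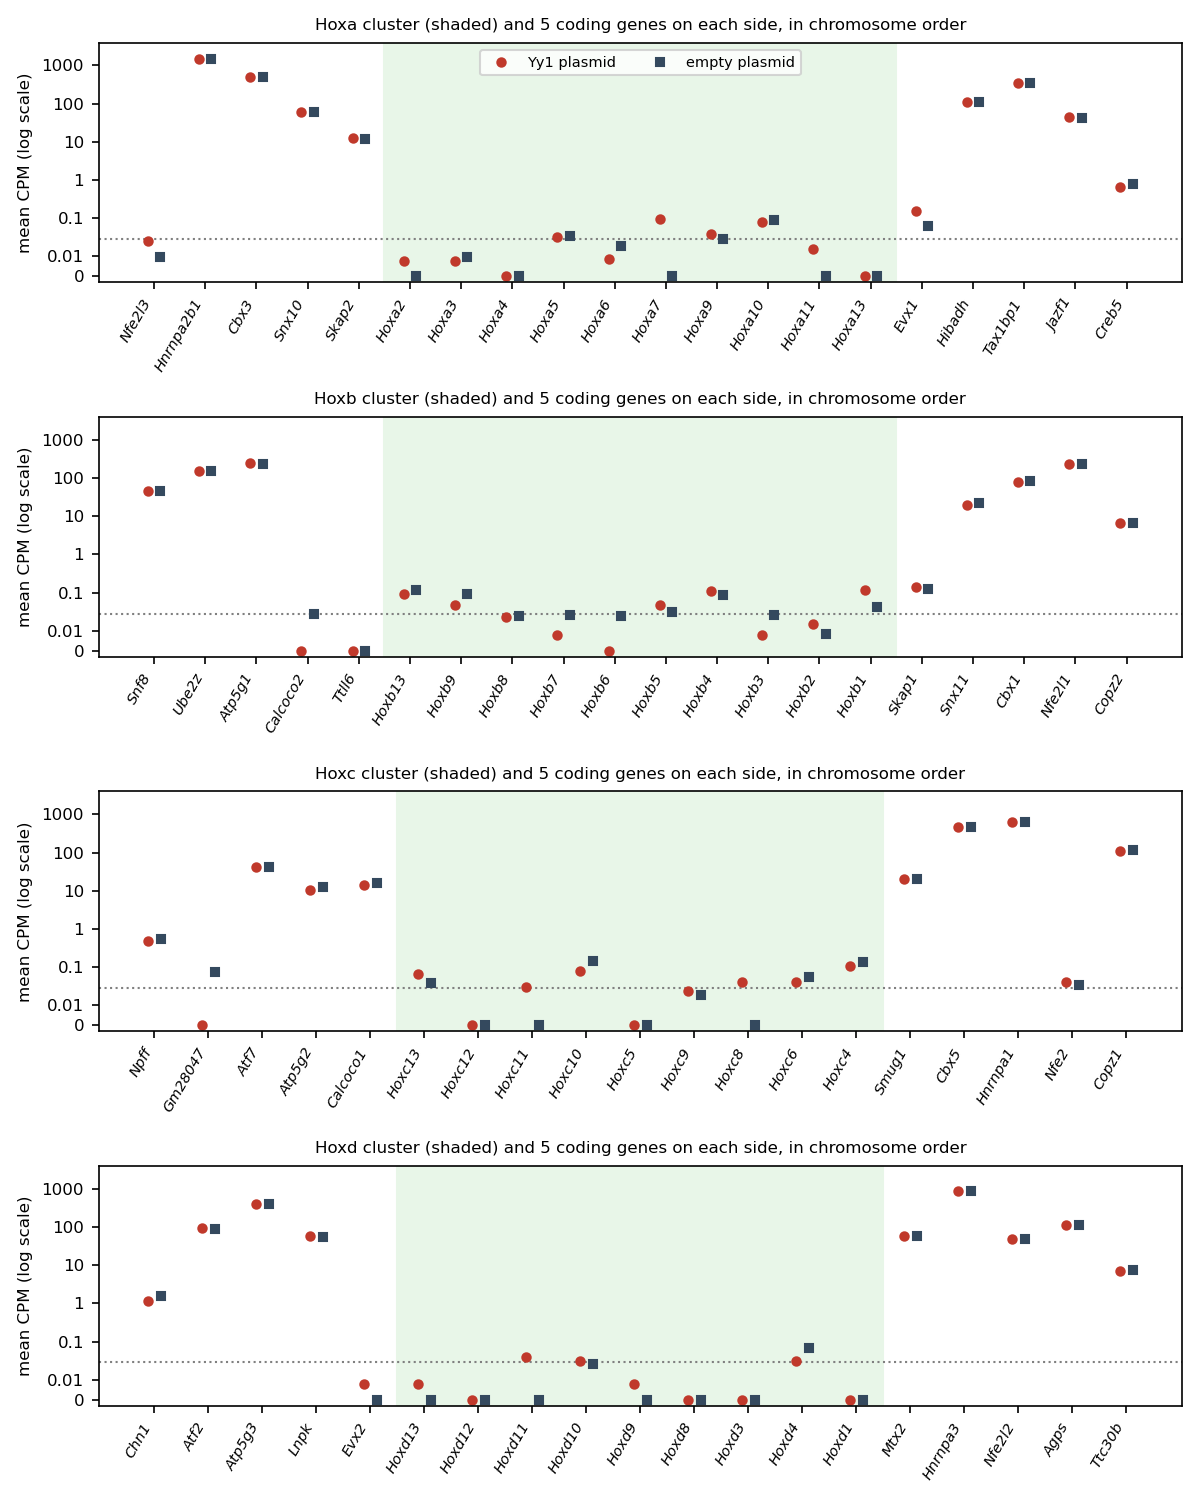
Mean level (y axis, CPM, log scale with 0 drawn at the bottom) of the Hox genes drawn (shaded) and of the 5 nearest protein-coding genes on each side, ordered by their start along the chromosome; circles are the Yy1 plasmid, squares the empty plasmid, n = 4 each, and the dotted line is 3 counts over the empty plasmid group. No Hox gene exceeds 0.145 CPM, while Hnrnpa2b1 near the Hoxa cluster stands at 1482 CPM with the Yy1 plasmid and 1519 CPM with the empty plasmid.

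Of the other annotated genes inside the clusters, most of them noncoding, 26 have a row in the table and 20 were not analysed here. The 26 summed to 37 counts with the Yy1 plasmid and 14 with the empty plasmid. These sums are not scaled for depth, which differed by a ratio of 1.21, and the difference was not tested. Counts were 0 for 16 of the 26, among them Hotair, the Hoxc noncoding RNA, and all 6 microRNA genes (members of the mir-10, mir-196 and mir-615 families). Poly(A) libraries do not measure mature microRNAs. The most counts came from Gm53 in Hoxb, with 14 counts with the Yy1 plasmid and 8 with the empty plasmid. Haglr, a noncoding RNA of the Hoxd cluster, had 4, 2, 1 and 0 counts in Yy1 plasmid libraries 45 to 48 and 0 in all 4 empty plasmid libraries. Of all genes with 1 to 29 counts, 25.2% were seen with the Yy1 plasmid alone. That share includes genes with 1 count and is not matched to the total of 7 for Haglr, so it does not tell how common its pattern is. Without a stated strand setting, reads of an antisense gene and its Hox partner cannot be told apart.

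Genes whose products act with or on Hox genes were well measured. EdgeR, DESeq2 and limma-voom each called 0 members of the lists of cofactors, Polycomb subunits, Trithorax genes and other Polycomb targets. Over all 15916 tested genes edgeR called 0.515%, and 5.42% had an unadjusted p under 0.05. With so small a share called, 0 calls in short lists do not set them apart from other genes. The TALE cofactors, homeodomain proteins that bind DNA with Hox proteins, passed the filter in 8 of 9 cases, and edgeR called 0 of them (0 with an unadjusted p under 0.05; log2 fold changes from -0.0546 to 0.0936, median 0.014). Meis1 had 36.9 ± 2.09 CPM with the Yy1 plasmid and 35.9 ± 1.88 CPM with the empty plasmid (SD, n = 4 each). The log2 fold change was 0.09 (SE 0.0662) for Meis3 and -0.05 (SE 0.0504) for Pbx2. The ParaHox genes, the sister family of the Hox clusters, had at most 3 counts each, and Pdx1, the pancreatic member, had 1 in all 8 libraries.

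All 35 listed Polycomb subunits passed the filter, and edgeR called 0 of them (0 with an unadjusted p under 0.05). Of all 15916 tested genes 0.515% were called and 5.42% had an unadjusted edgeR p under 0.05. The log2 fold changes of the 35 subunits ran from -0.119 to 0.0677 with a median of -0.02, 26 of them below 0. The median of all tested genes was -0.00249, the share of all tested genes below 0 was not counted, and a shift of the subunits as a set was not tested. Ezh2, the methyltransferase of Polycomb repressive complex PRC2, had 204 ± 1.66 CPM with the Yy1 plasmid and 207 ± 10.1 CPM with the empty plasmid, and Bmi1, of PRC1, had 94.7 ± 3.06 and 96.9 ± 2.02 CPM in the same order (SD, n = 4 each). Those with the smallest p were Sfmbt2 (log2 fold change -0.12, SE 0.0672), Scmh1 (-0.09, SE 0.0497), Mtf2 (-0.08, SE 0.0494) and Rbbp7 (-0.04, SE 0.0381). Of the 14 Trithorax and COMPASS genes, all in the test, edgeR called 0, and 1 had an unadjusted p under 0.05. That was Kmt2d, a histone methyltransferase, with 291 ± 3.74 CPM with the Yy1 plasmid and 266 ± 29.4 CPM with the empty plasmid (a log2 difference of 0.13 with SE 0.0607; adjusted p = 0.909 by edgeR). Kmt2a, which maintains Hox expression in blood cells, had a log2 fold change of 0.06 (SE 0.0509), Kmt2c had 0.08 (SE 0.0482) and Dpy30 -0.05 (SE 0.0458).

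Other developmental regulators known as Polycomb targets were not uniformly silent. Of 70 listed genes 19 passed the filter, 46 had no more counts than the highest Hox gene and 11 had 0. Those above the filter included Sim1, a neural factor, with 38.8 ± 2.62 CPM with the Yy1 plasmid and 37.5 ± 2.57 CPM with the empty plasmid, and the forkhead gene Foxf2, with 31.6 ± 0.633 and 31.4 ± 1.49 CPM in the same order (SD, n = 4 each). EdgeR called 0 of the 19, where 0.515% of all tested genes were called. Of the 19, 1 had an unadjusted p under 0.05, where 5.42% of all tested genes did. The log2 fold change was 0.75 (SE 0.474) for Otx1, -0.09 (SE 0.0605) for Foxc1 and 0.72 (SE 0.531) for Pax2. Over the 19 genes the median log2 difference was -0.0062.

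**Figure D5:**
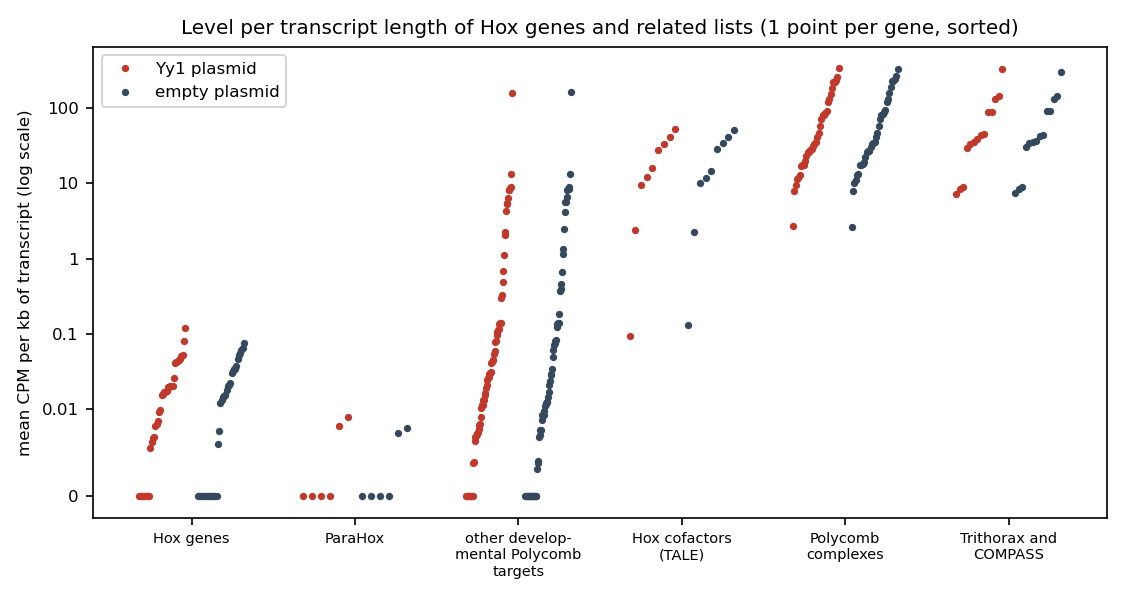
Mean level per kilobase of transcript (y axis, CPM per kb, log scale with 0 drawn at the bottom), 1 point per gene drawn, sorted within each list, with the Yy1 plasmid left of the empty plasmid. Hox genes reach 0.118 CPM per kb with the Yy1 plasmid (Hoxa7) and 0.0761 with the empty plasmid (Hoxc10), while the Polycomb subunits run from 2.68 (Epop) to 331 CPM per kb over all libraries.

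Markers of other cell types were measured in the same libraries, and not all of them were low. The summed level of 10 mesenchyme and stroma markers was 3.94 to 6.56 CPM with the Yy1 plasmid and 3.77 to 6.47 CPM with the empty plasmid. It was 1.32 to 1.99 CPM with the Yy1 plasmid and 0.833 to 1.93 CPM with the empty plasmid for 6 endothelial markers, and 1.57 to 2.65 and 2 to 2.6 CPM in the same order for 7 immune markers. In each of these 3 lists only 2 markers passed the filter, and edgeR called 0 of them, with 1 unadjusted p under 0.05, that of the macrophage gene Cd68 (log2 fold change -0.50, adjusted p = 0.909).

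Ptprc, the pan-leukocyte gene CD45, lay below the filter and was singled out after its values were seen. It had 19, 17, 9 and 10 counts in Yy1 plasmid libraries 45 to 48, against 2, 5, 2 and 2 in empty plasmid libraries 31 to 34. The groups did not overlap, and with no filter, a setting added for the markers after the data were seen, edgeR gave a log2 fold change of 2.01 (SE 0.57, adjusted p = 0.0855), which was not called. Under that setting 0 members of any marker list were called, where 0.43% of all 40437 genes were. Of the other immune markers, Cd3e, Lyz2 and Csf1r were higher with the Yy1 plasmid, and Cd68, Itgam and Cd79a were lower. How often genes with the total count of Ptprc do not overlap was not counted.

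Neuron and glia markers summed to 53.9 to 58.6 CPM with the Yy1 plasmid and 48.1 to 53.9 CPM with the empty plasmid, with Tubb3 at 37.0 ± 1.55 and 33.1 ± 2.36 CPM in the same order (SD, n = 4 each; edgeR adjusted p = 0.533) and Sox10 at 0. Beta and delta cell markers summed to 49.3 to 59.0 CPM with the Yy1 plasmid and 52.9 to 57.4 CPM with the empty plasmid, most of it from the transcription factor gene Nkx6-1, with 51.0 ± 4.41 and 54.8 ± 2.1 CPM in the same order. Acinar and duct markers summed to 20.5 to 22.4 CPM with the Yy1 plasmid and 18.4 to 21.5 CPM with the empty plasmid, with Cela1 and Krt7 above the filter and the acinar genes Prss1, Amy2b and Ptf1a at 0. In each of these 3 lists edgeR called 0 members and 1 had an unadjusted p under 0.05. Of all tested genes 0.515% were called and 5.42% had an unadjusted p under 0.05. The part of such cells in the Hox counts was not tested.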

How the data were processed

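Poly(A) RNA of 8 samples was made into directional libraries, per the labels' protocols. Fastp, kallisto and the build GRCm39 are listed, without roles, per the submitters' processing notes; versions, annotation, strand setting and the summing to genes are not given in the sources used here. The deposited table holds estimated counts per gene, not scaled for depth. These expected counts, as the authors deposited them, were rounded to whole numbers. Symbols, gene types, order along the chromosome and transcript lengths came from GENCODE M21 (GRCm38), which matched 48278 of the 75078 IDs. All genes were fitted with edgeR 4.0.16 in R 4.3.3 (TMM, filterByExpr with minimum count 10 and minimum total 15, robust glmQLFit and glmQLFTest, two-sided, Benjamini-Hochberg over all tested genes, threshold 0.05). The filtered fit was tested on simulated data, with changes planted only in genes far above the level of the Hox genes. That check does not cover Hox genes or the fits with other filters. Standard errors are the log2 fold change divided by the square root of F. No edgeR test covers genes below the filter unless said. The members, lists and rules were chosen with earlier results of these data known. Hox genes seen in at least 4 libraries or highest in their cluster were named, as were up to 4 genes with the smallest p from each list; Ezh2, Bmi1, Meis1, Sim1, Foxf2 and neighbours of the clusters were added with their values known. Some genes that these rules name are not reported here by name. A count of 0 allows 0.0900 to 0.145 CPM per library (3 counts), for counting error only. DESeq2 1.42.0, limma-voom (limma 3.58.1), 3 scalings, 3 filters and leaving out each library were alternatives.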

Additional observations from a re-analysis of the deposited data

Results flagged for a closer look

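In 5 of 52 groups of 4 libraries, over the summed levels and the 18 Hox genes seen in at least 4 libraries, a single library stood apart from the other 3 by the gap to its nearest neighbour. Chance flags about 1 in 20 groups, and with counts this low a single read can do it. Hoxb13 stood at 0.392 CPM (8 counts) in empty plasmid 33, where the other empty plasmid libraries held 0 to 1 counts. Hoxc13 stood at 0.151 CPM (4 counts) in empty plasmid 32 and at 0 in the other 3 empty plasmid libraries. Hoxb7 had 0.0307 CPM (1 count) in Yy1 plasmid 45 and 0 in the other Yy1 plasmid libraries. Hoxb7 also had 0 in empty plasmid 33, with 1 count in each of the other empty plasmid libraries. Hoxc9 had 0 in Yy1 plasmid 45, with 1 count in each of the other Yy1 plasmid libraries.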

How the results depend on the processing

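No paired analysis was made because the labels give no batch or pairing for samples 45 to 48 and 31 to 34. Hox genes could be tested under 2 of the 17 alternatives, edgeR with no filter (31 genes) and with at least 10 counts in all (11 genes), and 0 were called. The others tested none, so they say nothing about Hox calls. Flanking genes and context lists, markers aside, had 0 calls under all 17. Over all genes, the 82 called became 174 with no filter and 54 with at least 1 CPM in 4 libraries, since more or fewer genes were tested, and 65 to 87 with single libraries left out. The number of Hox genes below the filter was 8 in place of 39 with no filter. At a minimum of 3 counts in a library, 15 Hox genes were seen with the Yy1 plasmid and 12 with the empty plasmid. With single libraries left out, 27 to 29 and 20 to 22 were seen in the same order. The difference of the summed Hox level, Yy1 minus empty plasmid, was 0.119 CPM and ran from 0.0701 to 0.195 CPM with single libraries left out. For Hoxa it was 0.114 CPM and ran from 0.0774 to 0.140 CPM. For paralogs 1 to 3 it was 0.0749 CPM and ran from 0.0284 CPM without Yy1 plasmid 47 to 0.106 CPM without Yy1 plasmid 46. For Hoxb, Hoxc, Hoxd and paralogs 4 to 8 and 9 to 13 it changed sign with single libraries left out, and it lay within 1 SD of the value with all libraries. Scaling by library size alone moved none of these beyond 1 SD. With the most upstream transcript in place of the longest, an alternative chosen after seeing the data, 24 Hox genes had a CpG-rich start instead of 22. Log2 fold changes of Hox genes have no value under the filters that leave them out. Of the 5 highest Hox genes per kilobase, 3 were shared when the longest transcript was used. Depth limits all of this: at 0 to 9 counts per gene and library, differences of several fold in a single Hox gene were not detectable.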
